A study of Homo sapiens with 58 samples.

Results

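The data described here are the 6 libraries, of 58 in the series, in which RNA bound by the protein HuR was recovered from the cytoplasmic fraction of Huh-7.5 cells with and without sodium arsenite. They were chosen by their column labels, 3 cytoplasmic mock libraries and 3 cytoplasmic arsenite libraries, in the combined table of peak coverage. Lines of the table that repeated the same chromosome, start, end and strand were dropped, which left 387214 peaks of 20 nt. Tags were then summed over all peaks that carry the same gene name and the same annotation class. Such a sum, for example all peaks of PDIA4 annotated as 3'UTR, is called a unit.

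Huh-7.5 is an established human hepatocellular carcinoma line, here of wild-type genotype and labelled as having had no APEX reaction. Arsenite cells received 0.5 mM sodium arsenite for 45 min, and the mock cells did not. Both groups were crosslinked with ultraviolet light, for which the protocol names doses of 400 and 200 mJ/cm2, fractionated, treated with RNase I at either of a pair of dilutions, and subjected to HuR immunoprecipitation with antibody 3A2, and the crosslinked fragments were sequenced (CLIP-seq). The 6 nuclear libraries of the same cells and treatments (3 mock and 3 arsenite) serve below as the comparison fraction. The labels do not say which ultraviolet dose or RNase I dilution each library had. They also do not say that replicates came from separate cultures, so p-values measure only the spread between these libraries, which may be technical.

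HuR, the product of ELAVL1, is a shuttling RNA-binding protein that prefers U-rich and AU-rich stretches, which it finds in the introns of pre-mRNA in the nucleus and in the 3'UTRs of mature mRNA. It is best known for stabilising short-lived mRNAs and for moving towards the cytoplasm under stress. Arsenite is an oxidant stressor that blocks translation initiation and causes stress granules to form, in which HuR and untranslated mRNA collect. A tag records HuR crosslinked to an RNA, and the RNA itself was not measured, so the amount of an RNA in the fraction and the binding of HuR to it cannot be told apart. In the same way, fewer cells with an RNA and less of it per cell cannot be told apart.

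The mock libraries held 343333 to 368323 tags in peaks and the arsenite libraries 499307 to 673322, so depth moved with the treatment. Levels are given as CPM, the tags of a unit per 1000000 of the library total, which was inferred from the deposited values. Mock library 1 stood apart from the other mock libraries: its counts differed from them by 2.32 and 2.36 times the variance of counting noise (chi-square per degree of freedom over 5521 units), against 1.34 between mock libraries 2 and 3 and 1.28 to 1.32 among the arsenite libraries. The summed level of 20 hepatocyte marker genes, of which 18 had a tag, was 2270 to 3100.5 CPM in mock and 1263 to 1406 CPM in arsenite, with AFP and ALB the highest. Of 27 nuclear RNAs taken as markers of the other fraction, 17 had a tag in the cytoplasmic libraries, and their sum was 2482 to 3038 CPM in mock and 2773 to 3765 CPM in arsenite. Most of it was MALAT1, which was as high in the cytoplasmic libraries (2149 to 2708 CPM in mock) as in the nuclear ones (2348 to 2739 CPM in mock). The summed level of 15 cytoplasmic and mitochondrial RNAs, 10 with a tag, was 944 to 1297 CPM in mock and 407 to 549 CPM in arsenite, most of it the mitochondrial rRNA MT-RNR2.

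The first question was how arsenite changed the kinds of RNA region that HuR occupied in the cytoplasm. Under arsenite a smaller part of the tags lay in 3'UTRs and a larger part in introns. The 3'UTR share was 37.1%, 45.3% and 44.6% in mock libraries 1, 2 and 3 and 24.8%, 25.3% and 23.5% in arsenite libraries 1, 2 and 3. The intron share was 34.8%, 28.1% and 28.6% in the mock libraries and 43.1%, 43.5% and 44.6% in the arsenite libraries. The groups did not overlap for either class, and mock library 1 lay nearest to the arsenite libraries in both. Means were 42.3% ± 4.58 and 24.5% ± 0.94 for 3'UTRs and 30.5% ± 3.74 and 43.7% ± 0.76 for introns (SD, n = 3 each), differences of -17.8 and 13.2 percentage points. A two-sided exact permutation test gave p = 0.1 for both, the smallest p that 3 against 3 libraries allow, and 0.11 after Benjamini-Hochberg adjustment over 10 classes.

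Smaller classes moved as well. Peaks in non-coding RNA took 9.17% ± 0.65 of the tags in mock and 11.8% ± 0.20 in arsenite. Coding sequence took 0.94% ± 0.13 and 0.67% ± 0.01, and snoRNA 0.07% ± 0.02 and 0.02% ± 0.003. None of these groups overlapped, whereas the 5'UTR shares did (exact p = 0.3). In the nuclear libraries the corresponding means went from 11.7% to 19.2% for 3'UTRs and from 53.9% to 47.3% for introns, the opposite direction for both classes. The intron class has parts in the table: introns proper held 19.8% to 24.5% of tags in mock and 30.5% to 31.3% in arsenite, and peaks labelled as retained introns of coding genes 8.30% to 10.3% and 12.6% to 13.2%, so both parts were higher in all 3 arsenite libraries.

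**Figure D1:**
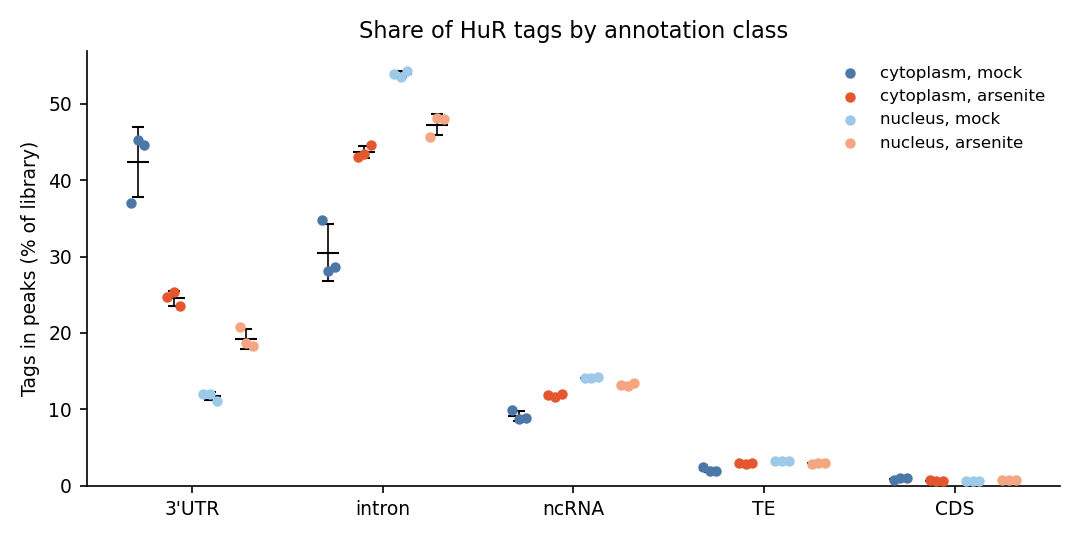
Share of peak tags, in percent, held by 5 annotation classes in each library. Points are libraries, grouped by fraction and treatment, and bars are the mean and SD of 3 libraries. Cytoplasmic 3'UTR shares drop from 37.1% to 45.3% in mock to 23.5% to 25.3% in arsenite, and cytoplasmic intron shares rise to 43.1% to 44.6%.

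The second question was which genes carried the change. Units with a mean of at least 10 CPM over the 6 libraries were compared with limma on log2(CPM + 2), with p-values adjusted over all 5521 units by the Benjamini-Hochberg method, and a unit was called at an adjusted p under 0.05. Differences are on that scale, which understates the change of low units. Of all units 24.2% (1335) were called lower and 28.6% (1580) higher under arsenite. Of 2229 units in 3'UTRs, 54.0% (1204) were lower and 2.60% (58) higher, with a median difference of -0.61. Of 2645 intron units 2.42% (64) were lower and 47.7% (1262) higher, with a median of 0.51. The shift in 3'UTRs was broad: the middle 90% of units ran from -1.85 to 0.38, and 84.2% lay below 0. Introns were more uniform, with the middle 90% from -0.28 to 1.07.

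Whether a unit changed more than its own class was asked by scaling each library to its tags in that class. Then 395 units in 3'UTRs (17.7%) were lower and 529 (23.7%) higher, and 194 intron units (7.33%) were called in each direction. The signs of moderate 3'UTR differences therefore depend on this choice, and class-scaled counts are given for the gene lists described below. The class-scaled median was 0.13 for 3'UTRs and 0.04 for introns.

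**Figure D2:**
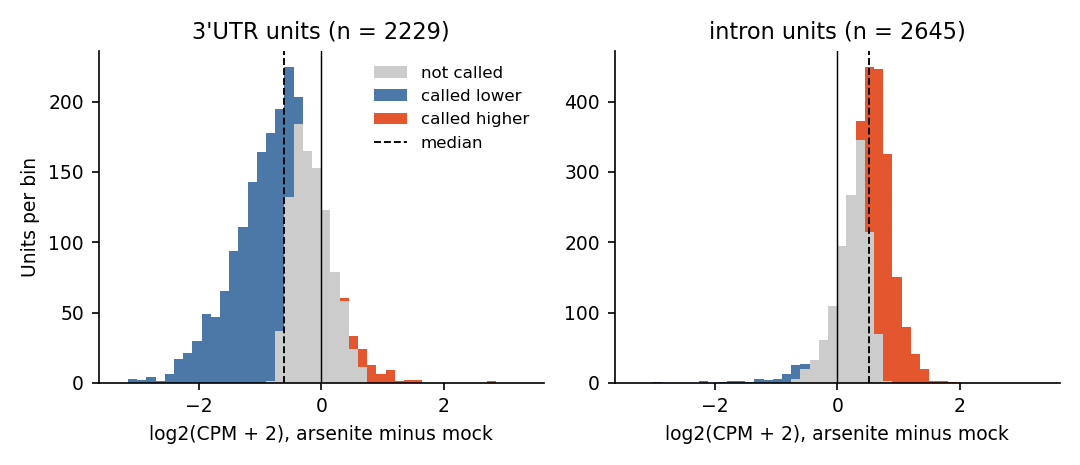
Differences between arsenite and mock on the log2(CPM + 2) scale for the 2229 tested 3'UTR units and the 2645 tested intron units. Colours give the limma call at an adjusted p under 0.05, and the dashed lines mark the medians, -0.61 and 0.51.

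Summed over all units, 3'UTRs with a gene name held 135265, 169962 and 172512 CPM in the mock libraries and 89172, 96791 and 86854 CPM in the arsenite libraries. The 1204 units called lower made up 90.8% of that difference. The 100 units with the highest mean level accounted for 36.9% of it while holding 29.4% of the mock level. Strongly occupied 3'UTRs were called more often. When the 2229 units were ordered by mean level and split into 4 bins, 38.2% of the lowest bin (up to 15.1 CPM) were called lower, with a median difference of -0.53, and 74.3% of the highest bin (from 51.0 CPM), with a median of -0.81. Intron sums went the other way, from 126653, 104828 and 110319 CPM in mock to 154764, 165690 and 164390 CPM in arsenite. The 1262 units called higher held 84.1% of that gain and the 100 most abundant 24.5%. Intron units with many peaks rose most often, 88.5% of the 442 units with 100 or more peaks against 15.5% of the 58 units with fewer than 10.

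The 12 lowest 3'UTR units, taken among called units that average at least 20 CPM and whose groups do not overlap, include secretory-pathway, cytoskeletal and redox genes. PDIA4 encodes a disulfide isomerase of the endoplasmic reticulum (ER). Its 3'UTR unit had 361, 517 and 406 CPM in mock libraries 1, 2 and 3 and 41.9, 55.1 and 46.6 CPM in arsenite libraries 1, 2 and 3. Every arsenite library was far below every mock library, a difference of -3.10 ± 0.17 (SE), adjusted p = 3.0e-22. One 20-nt peak held 91.9% of the unit's tags (chr7:149003637-149003657, minus strand, GRCh38.p14 per the submitters' processing notes). GSN, which encodes the actin-severing protein gelsolin, had a single 3'UTR peak (chr9:121332738-121332758, plus strand) with 703, 772 and 727 CPM in mock libraries 1, 2 and 3 and 83.7, 105 and 82.1 CPM in arsenite libraries 1, 2 and 3. The difference was -3.002 ± 0.16 (SE), adjusted p = 1.5e-22, with the 3 mock libraries close together.

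NUTF2 encodes the carrier that returns Ran to the nucleus. Its 3'UTR unit had 603, 783 and 878 CPM in mock and 79.4, 123 and 81.4 CPM in arsenite (-2.98 ± 0.17 (SE), adjusted p = 1.8e-21), and 98.6% of it lay in 1 peak (chr16:67871181-67871201, plus strand). SRPRB, the membrane-anchored subunit of the receptor for the signal recognition particle, had 96.8, 147 and 112 CPM in mock and 10.8, 17.1 and 11.8 CPM in arsenite (-2.98 ± 0.21 (SE), adjusted p = 1.0e-17). COX16, a mitochondrial factor for assembly of cytochrome c oxidase, had the lowest value of all 3'UTR units, with 39.4, 59.1 and 78 CPM in mock and 5.05, 3.98 and 5.56 CPM in arsenite (-3.10 ± 0.26 (SE), adjusted p = 1.1e-14). In each of these 3 units no arsenite library came near the lowest mock library. STT3A, a catalytic subunit of the oligosaccharyltransferase that adds N-glycans to proteins entering the ER, had 453, 579 and 457 CPM in mock and 69.3, 88.7 and 65.4 CPM in arsenite (-2.71 ± 0.16 (SE), adjusted p = 3.0e-20).

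The most heavily occupied of the strongly lowered 3'UTRs was SPTBN1, a spectrin of the membrane skeleton. It had 1991, 2324 and 1834 CPM in mock libraries 1, 2 and 3 and 362, 377 and 278 CPM in arsenite libraries 1, 2 and 3, a difference of -2.60 ± 0.16 (SE), adjusted p = 1.9e-19. Of its 14 peaks 11 had a lower mean under arsenite and 3 a higher one, and the strongest peak (chr2:54669256-54669276, plus strand) went from a mean of 1549 to 159.9 CPM. The loss was not equal along the 3'UTR. TXN, the oxidoreductase thioredoxin, had 40.4, 55 and 56.9 CPM in mock and 5.05, 12.5 and 2.09 CPM in arsenite in its only peak (-2.80 ± 0.29 (SE), adjusted p = 1.1e-11). Relative to their mean the 3 arsenite values of TXN were widely spread, and all stayed below mock. The remaining members of the 12 lowest were CLSTN1, a transmembrane cargo adaptor, at -2.84, the tumour necrosis factor receptor TNFRSF1A at -2.75, the extracellular matrix protein FBLN1 at -2.53 and the ion cotransporter SLC12A2 at -2.46. All 12 stayed lower in the class-scaled comparison, by -1.67 for SLC12A2 to -2.43 for COX16.

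**Figure D3:**
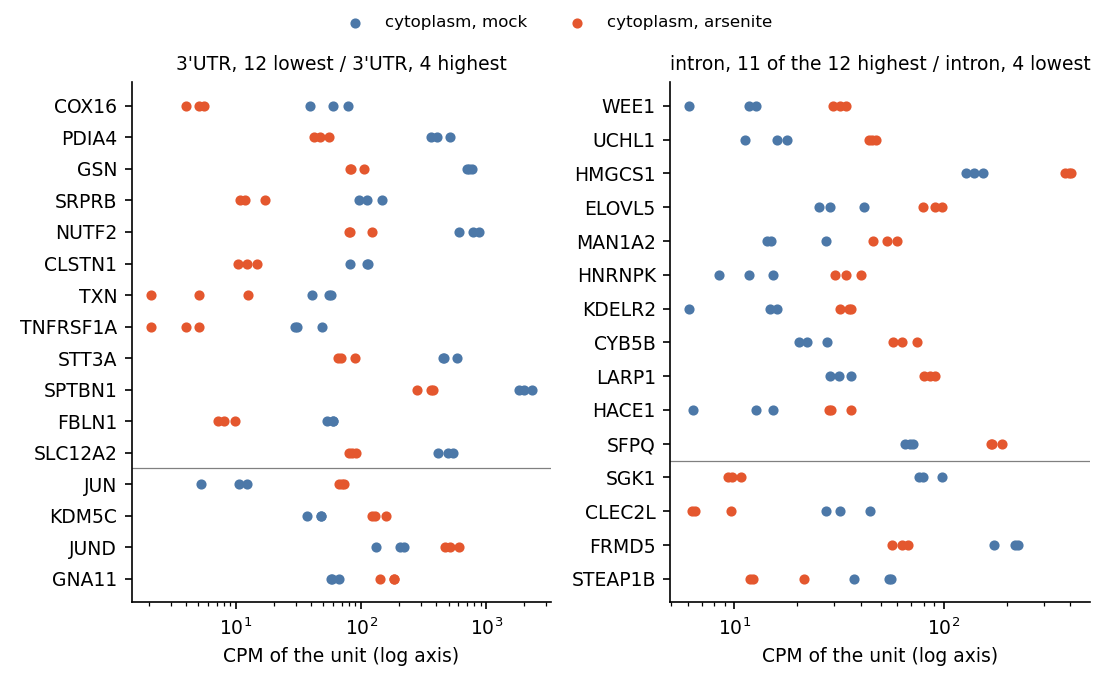
Level of named units in each cytoplasmic library, in CPM on a log axis. Points are libraries, and the line separates the units chosen as lowest and highest in each class. The 12 lowest 3'UTR units and the 4 lowest intron units lie left of mock under arsenite, and the 11 intron units shown of the 12 highest and the 4 highest 3'UTR units lie right of it. The naming rule admits only units without overlap between groups.

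The most abundant 3'UTR units were lowered to very different degrees. ACTB, which encodes beta-actin and is a known HuR target, had 1869, 2594 and 2693 CPM in mock libraries 1, 2 and 3 and 925, 1164 and 1007 CPM in arsenite libraries 1, 2 and 3 (-1.20 ± 0.17 (SE), adjusted p = 8.1e-08). IGF2, a secreted growth factor expressed in liver tumours, had 1092, 1304 and 1274 CPM in mock and 197, 259 and 244 CPM in arsenite (-2.39 ± 0.16 (SE), adjusted p = 1.9e-18). SCD, the desaturase that makes oleate, had 793, 1113 and 1039 CPM in mock and 336, 388 and 360.3 CPM in arsenite (-1.42 ± 0.16 (SE), adjusted p = 1.3e-10). HNRNPU, a nuclear matrix RNA-binding protein, differed by -1.11 ± 0.17 (SE), adjusted p = 2.0e-07. Reads of EIF5AL1 (difference -1.62) may stem from its near-identical parent gene EIF5A, so its level is uncertain. GPC3, a cell-surface proteoglycan of liver cancer cells, had 1041, 959 and 731 CPM in mock and 551, 434 and 496 CPM in arsenite, a difference of -0.87 ± 0.16 (SE), adjusted p = 1.7e-05, and -0.07 after class scaling (adjusted p = 0.72). HNRNPH1, a splicing regulator, was the exception: it had 878, 1156 and 1205 CPM in mock and 827, 912 and 840.2 CPM in arsenite, the groups overlapped, and the difference of -0.32 ± 0.16 (SE), adjusted p = 0.099 was not called. Without mock library 1 its difference was -0.46 (adjusted p = 4.1e-05), and relative to its class it was higher, by 0.48 (adjusted p = 2.8e-05).

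Grouped by function, genes of protein entry into the ER had the lowest median of the lists examined. Of 53 genes for ER translocation, glycosylation and folding, 51 had a cytoplasmic tag and 29 a 3'UTR unit high enough to test. Of those 29, 27 were lower and none higher, against 54.0% lower over all 3'UTR units, and their median was -1.53 against -0.61. Beside PDIA4, SRPRB and STT3A they included the other catalytic oligosaccharyltransferase subunit, STT3B (-1.62), the translocon-associated protein SSR1 and the lectin chaperones CANX and CALR. SSR1 had 321, 426 and 427 CPM in mock and 85.9, 101.2 and 78.6 CPM in arsenite (-2.11 ± 0.16 (SE), adjusted p = 4.9e-16). CALR had 257, 400.3 and 304 CPM in mock and 70.7, 76.2 and 77.2 CPM in arsenite (-2.05 ± 0.17 (SE), adjusted p = 2.6e-15). CANX, the most abundant of the list, had 733, 942 and 874 CPM in mock and 259, 277 and 237 CPM in arsenite (-1.71 ± 0.16 (SE), adjusted p = 2.5e-13). In each of these 3 genes every arsenite library was below every mock library.

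The structural subunit RPN1 (-1.39), the signal peptidase subunit SPCS3 (-1.53), the ER chaperone partners DNAJB9 (-1.72) and HYOU1 (-1.75) and the translocon pore subunit SEC61A1 (-0.92) were also called lower. SRP9, which is part of the signal recognition particle itself and not of the membrane, had 89.3, 93.7 and 121 CPM in mock and 88.8, 82.4 and 100.9 CPM in arsenite. Its groups overlapped and the difference of -0.15 ± 0.17 (SE), adjusted p = 0.47 was not called, nor was that of SEC61G (-0.47 ± 0.25 (SE), adjusted p = 0.11). After class scaling 18 of the 29 were still lower and 1, SRP9, was higher (0.64, adjusted p = 4.7e-04), with a median of -0.74 against 0.13 over all 3'UTR units.

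Secreted products of the hepatocyte were lower too. All 12 tested 3'UTR units of a list of 69 plasma protein genes, of which 43 had a tag, were lower, with a median of -1.41, against 54.0% lower and a median of -0.61 over all 3'UTR units. FGB, the beta chain of fibrinogen, had 118, 163 and 124 CPM in mock and 28.2, 26.1 and 29.9 CPM in arsenite (-2.18 ± 0.18 (SE), adjusted p = 9.9e-15). ALB, serum albumin, had 293, 427 and 434 CPM in mock and 74.4, 105 and 83.5 CPM in arsenite (-2.10 ± 0.17 (SE), adjusted p = 1.9e-15). TFPI, an inhibitor of blood coagulation, had 181, 283 and 225 CPM in mock and 53.4, 51.2 and 45.9 CPM in arsenite in its 3'UTR (-2.13 ± 0.17 (SE), adjusted p = 2.5e-15), and all 14 of its 3'UTR peaks had a lower mean. Its intron unit overlapped between groups and was not called (-0.20 ± 0.18 (SE), adjusted p = 0.35), and it was lower relative to other introns (-0.69, adjusted p = 1.9e-04). The differences were smaller for AFP (-0.80) and SERPINA1 (-0.76), and the SERPINA1 groups overlapped. With class scaling 6 of the 12 were lower and none higher, against 17.7% and 23.7% over all 3'UTR units. The hepatocyte marker sum given above fell along with this list, which shares genes with it. The part of that marker in the result was not tested.

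Among 36 tested genes of vesicle traffic 21 were lower and 1 higher, with a median of -0.75, not far from the 54.0% lower and the median of -0.61 over all 3'UTR units. The lowest were cargo receptors of the early secretory pathway, TMED4 (-2.09 ± 0.22 (SE), adjusted p = 2.5e-11), LMAN1 (-1.96) and LMAN2 (-1.80). RAB5A, the GTPase of early endosomes, was the 1 that rose, with 53.2, 67.2 and 64.3 CPM in mock and 103, 109.7 and 111 CPM in arsenite (0.79 ± 0.17 (SE), adjusted p = 1.8e-04). After class scaling the counts were 9 lower and 9 higher, and the median was -0.03, while over all 3'UTR units 17.7% were then lower and 23.7% higher. Chaperone and heat-shock genes gave 9 lower and 1 higher of 11, with a median of -1.12, and after class scaling 5 lower and 1 higher with a median of -0.37. HSP90AA1, the inducible HSP90, had 149, 241 and 262 CPM in mock and 56.3, 83.6 and 58.4 CPM in arsenite (-1.67 ± 0.18 (SE), adjusted p = 5.0e-11). HSPA1B, an HSP70 gene with a near-identical neighbour that could share its reads, had 51.1, 89.6 and 115 CPM in mock and 34.7, 22.7 and 18.8 CPM in arsenite (-1.64 ± 0.22 (SE), adjusted p = 1.8e-08). STIP1, the adaptor between HSP70 and HSP90, rose instead, with 7.45, 10.2 and 14.8 CPM in mock and 21.7, 23.9 and 26.4 CPM in arsenite (1.06 ± 0.27 (SE), adjusted p = 0.0011).

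Among stress-response genes the integrated stress response lay below all 3'UTR units, of which 54.0% were lower with a median of -0.61, and NRF2 genes lay near them. Of 8 tested genes of the integrated stress response 7 were lower and none higher, led by the amino acid transporter SLC38A2, with 792, 1021 and 1031 CPM in mock and 326, 339 and 327 CPM in arsenite (-1.504 ± 0.16 (SE), adjusted p = 1.7e-11). PPP1R15B, the constitutive regulator of eIF2 alpha phosphatase, differed by -1.20 ± 0.17 (SE), adjusted p = 5.7e-08. Of 13 NRF2 and antioxidant genes 8 were lower and none higher, with a median of -0.64. TXN was the lowest and PRDX1, a peroxidase that thioredoxin recycles, followed with 165, 175 and 209.8 CPM in mock and 39.7, 61.4 and 29.9 CPM in arsenite (-2.07 ± 0.19 (SE), adjusted p = 1.2e-13). SOD2, the mitochondrial superoxide dismutase, overlapped between groups (-0.16 ± 0.18 (SE), adjusted p = 0.45) and was not called. After class scaling 2 genes of the integrated stress response were lower and none higher (median -0.23), and 3 NRF2 genes were lower and 2 higher (median 0.14). The class-scaled shares over all 3'UTR units were 17.7% lower and 23.7% higher.

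Translation factors lay somewhat below all 3'UTR units and stress-granule proteins near them. Over all 3'UTR units 54.0% were lower and 2.60% higher, and 17.7% and 23.7% after class scaling. Of 20 translation factors 12 were lower and 1 higher, with a median of -0.80, and after class scaling 2 were lower and 3 higher. EIF4E, the cap-binding protein, had 60.6, 80.5 and 109 CPM in mock and 33.9, 39.2 and 25.7 CPM in arsenite (-1.27 ± 0.20 (SE), adjusted p = 8.0e-07). EIF4G1, its scaffold, was the 1 that rose, with 19.1, 30.6 and 22.1 CPM in mock and 34.7, 40.4 and 44.5 CPM in arsenite (0.71 ± 0.22 (SE), adjusted p = 0.0061). Of 30 stress-granule proteins 20 were lower and 1 higher, with a median of -0.61 against -0.61 over all 3'UTR units, and after class scaling 3 were lower and 9 higher. G3BP1, a protein that nucleates stress granules, had 346, 413 and 495 CPM in mock and 197, 202 and 163 CPM in arsenite (-1.14 ± 0.16 (SE), adjusted p = 6.3e-08). UBAP2L differed by -2.07, and IGF2BP1 by -0.29 ± 0.17 (SE), adjusted p = 0.13, with overlapping groups. IGF2BP1 was called lower without mock library 1 (-0.49, adjusted p = 7.4e-04) and higher relative to its class (0.50, adjusted p = 4.0e-04).

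For cytosolic ribosomal proteins, which build the translating ribosome, 8 of 79 genes had a 3'UTR unit high enough to test, 3 of them lower (median -0.59; 5 lower with edgeR and TMM scaling), and after class scaling 1 was lower and 1 higher. RPL15 had 30.8, 69.3 and 69.6 CPM in mock and 36.8, 31.8 and 25 CPM in arsenite (-0.75 ± 0.22 (SE), adjusted p = 0.0047). Its groups overlapped through mock library 1, and the call was lost without mock library 2 (adjusted p = 0.074) or mock library 3 (0.068). Of 28 known HuR target genes, a list taken from general knowledge, 15 were lower and 2 higher (median -0.65), close to the 54.0% lower and the median of -0.61 over all 3'UTR units, and after class scaling 8 were lower and 8 higher. For each list in this paragraph, the class-scaled shares to set beside it are 17.7% lower and 23.7% higher over all 3'UTR units. CTNNB1, which encodes beta-catenin, had 508, 748 and 785 CPM in mock and 201, 249 and 215 CPM in arsenite (-1.59 ± 0.16 (SE), adjusted p = 9.9e-12). The transferrin receptor TFRC was the lowest of them (-1.88 ± 0.18 (SE), adjusted p = 1.3e-12). Of 7 proteasome genes 3 were lower and 1, PSMB3, higher (0.49 ± 0.20 (SE), adjusted p = 0.034), and after class scaling none was lower and 2 were higher. The PSMB3 call was lost when libraries were centred on the median unit and with edgeR and TMM scaling, each of which left none of the 7 higher.

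**Figure D4:**
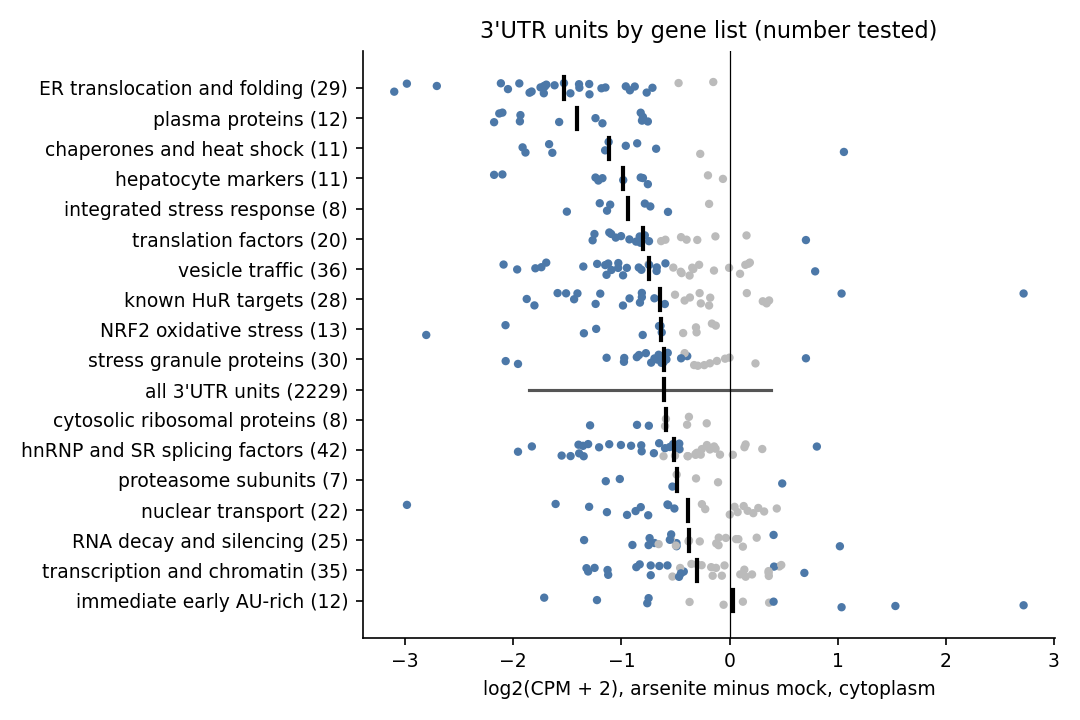
Difference between arsenite and mock in the cytoplasm for every tested 3'UTR unit of each gene list, on the log2(CPM + 2) scale. Blue points were called with limma, grey ones were not, black bars are medians, and the line for all 3'UTR units spans the 5th to the 95th percentile, -1.85 to 0.38. Medians run from -1.53 for ER translocation and folding to 0.03 for immediate early and AU-rich genes.

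Lists of nuclear and regulatory proteins had medians above the -0.61 of all 3'UTR units, of which 54.0% were lower, with splicing factors the nearest to it. The median was -0.51 for 42 hnRNP and SR splicing factors (22 lower, 1 higher), -0.38 for 25 genes of RNA decay and silencing (9 lower, 2 higher), -0.38 for 22 of nuclear transport (11 lower, none higher) and -0.30 for 35 of transcription and chromatin (14 lower, 2 higher). Relative to their class more of these units were higher than lower: 15 against 8, 10 against 1, 8 against 2 and 16 against 2, in the same order. When libraries were centred on the median unit, and with edgeR and TMM scaling, none of the transcription and chromatin genes and 1 of the RNA decay and silencing genes was higher. Over all 3'UTR units the class-scaled counts were 529 against 395 (23.7% and 17.7%). Within the lists genes differed widely. HNRNPA1, the prototype hnRNP, had 249, 334 and 424 CPM in mock and 61.4, 108 and 86.3 CPM in arsenite (-1.96 ± 0.18 (SE), adjusted p = 1.9e-13). SRSF9, a splicing factor of the SR family, rose, with 116, 128 and 156 CPM in mock and 220.2, 238 and 242 CPM in arsenite (0.81 ± 0.16 (SE), adjusted p = 4.8e-05). In nuclear transport NUTF2 was among the lowest units of all, while KPNB1, importin beta, had 388, 597 and 506 CPM in mock and 566, 489 and 467 CPM in arsenite and was not called (0.05 ± 0.16 (SE), adjusted p = 0.83). Relative to its class KPNB1 was higher, by 0.84 (adjusted p = 3.6e-08).

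Immediate early and AU-rich genes, which are induced within minutes by stress and whose short-lived mRNAs HuR is known to bind, were divided. Of 54 genes 42 had a tag and 12 a 3'UTR unit to test: 4 were lower, 4 higher and 4 not called. The median of 0.03 was the highest of any list and turned to -0.08 when libraries were centred on the median unit. With that centring, and with edgeR and TMM scaling, 5 were lower and 3 higher. After class scaling 8 were higher and 1 lower. Over all 3'UTR units 54.0% were lower and 2.60% higher, and 17.7% and 23.7% after class scaling. JUN, a subunit of the AP-1 transcription factor, had the largest gain of all 3'UTR units, with 10.6, 12.2 and 5.27 CPM in mock libraries 1, 2 and 3 and 70.0, 73.3 and 66.8 CPM in arsenite libraries 1, 2 and 3. The difference was 2.72 ± 0.24 (SE), adjusted p = 2.7e-14, and all 3 of its peaks had a higher mean. Its relative JUND had 132, 206 and 218 CPM in mock libraries 1, 2 and 3 and 516, 469.6 and 607 CPM in arsenite libraries 1, 2 and 3 (1.53 ± 0.17 (SE), adjusted p = 5.2e-11). DUSP1, a phosphatase that ends MAP kinase signalling, had 6.38, 7.13 and 4.22 CPM in mock and 11.6, 13.1 and 18.1 CPM in arsenite (1.04 ± 0.33 (SE), adjusted p = 0.0081), and ZFP36L1, which promotes decay of AU-rich mRNA, had 78.7, 97.8 and 114 CPM in mock and 124, 131 and 128 CPM in arsenite (0.41 ± 0.17 (SE), adjusted p = 0.039).

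Of the lowered members of the same list, CCN2, a secreted matrix protein, had 17, 17.3 and 22.1 CPM in mock and 5.78, 2.27 and 5.56 CPM in arsenite (-1.71 ± 0.33 (SE), adjusted p = 3.2e-05), and SGK1, a kinase induced by stress and steroids, had 49.99, 64.2 and 65.4 CPM in mock and 18.8, 33 and 23 CPM in arsenite (-1.23 ± 0.21 (SE), adjusted p = 3.7e-06). DUSP10 (-0.76 ± 0.32 (SE), adjusted p = 0.043) and ZFP36L2 (-0.75 ± 0.16 (SE), adjusted p = 1.4e-04) completed the 4, and ZFP36L2 stood at 0.04 after class scaling. Outside the lists, the other strongly raised 3'UTRs were KDM5C, a histone demethylase, with 37.2, 47.9 and 47.5 CPM in mock and 157, 122 and 129 CPM in arsenite (1.58 ± 0.18 (SE), adjusted p = 1.1e-10), and GNA11, a G protein alpha subunit, with 58.5, 57 and 66.4 CPM in mock and 182, 141 and 182 CPM in arsenite (1.44 ± 0.17 (SE), adjusted p = 5.1e-10). In KDM5C and GNA11 1 peak held most of the unit's tags, 89.8% and 87.3%. The naming rule admits only units whose groups do not overlap, so the separation of the 4 highest 3'UTR units was fixed in advance.

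Of the intron units 47.7% were called higher, and 7.33% relative to their class. HMGCS1, an enzyme of cholesterol synthesis, had 154, 139 and 128 CPM in mock libraries 1, 2 and 3 and 393, 379.7 and 402 CPM in arsenite libraries 1, 2 and 3 in its introns (1.47 ± 0.16 (SE), adjusted p = 2.3e-11), with 60 of 66 peaks higher. ELOVL5, which elongates polyunsaturated fatty acids, had 41.5, 25.5 and 28.5 CPM in mock and 98.2, 79.6 and 90.4 CPM in arsenite (1.46 ± 0.19 (SE), adjusted p = 1.2e-08). Arsenite libraries lay close together and well above mock in both genes.

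WEE1, the kinase that holds cells before mitosis, was different in form. Its introns had 11.7, 6.11 and 12.7 CPM in mock libraries 1, 2 and 3 and 29.6, 31.8 and 34.1 CPM in arsenite libraries 1, 2 and 3 (1.52 ± 0.26 (SE), adjusted p = 3.9e-06), but 6 of its 13 peaks were higher and 6 lower, and 1 peak (chr11:9582868-9582888, plus strand) held 58.9% of the tags. That peak went from a mean of 1.40 to 23.3 CPM. The WEE1 3'UTR unit overlapped between groups (0.34 ± 0.22 (SE), adjusted p = 0.17), and it was higher after class scaling (1.10, adjusted p = 4.2e-05). SFPQ, a nuclear RNA-binding protein, had 64.9, 71.3 and 68.5 CPM in mock and 169.7, 168 and 189 CPM in arsenite (1.34 ± 0.17 (SE), adjusted p = 1.7e-09), 16 of 17 peaks being higher.

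UCHL1, a deubiquitinase, had 16, 11.2 and 17.9 CPM in mock and 45.5, 43.8 and 47.3 CPM in arsenite in its introns (1.501 ± 0.23 (SE), adjusted p = 2.7e-07). LARP1, which binds the mRNAs of ribosomal proteins, had 28.7, 31.6 and 35.9 CPM in mock and 80.1, 85.8 and 90.4 CPM in arsenite (1.36 ± 0.19 (SE), adjusted p = 2.8e-08). The others named here from the 12 highest were MAN1A2, a Golgi mannosidase, at 1.45, the splicing regulator HNRNPK at 1.44, the ER retention receptor KDELR2 at 1.43, the membrane-bound cytochrome CYB5B at 1.40 and the ubiquitin ligase HACE1 at 1.36. The 11 units named here stayed higher after class scaling, between 0.84 for SFPQ and 1.08 for WEE1. Among the lists, transcription and chromatin genes had the most intron units, and 35 of 48 were higher and none lower, with a median of 0.66 against 0.51 over all intron units and 0.18 against 0.04 after class scaling, when 6 were higher and 1 lower. In nuclear transport 12 of 34 were higher and 1 lower, a smaller share than the 47.7% higher over all intron units, and after class scaling 1 was higher and 4 lower. Centring on the median unit left 6 of these higher and 2 lower, and edgeR with TMM scaling 7 and 2. In the ER list 3 of 8 were higher and none lower, with a median of 0.16, and after class scaling none was called in either direction (median -0.30). Centring left 1 of the 8 higher (median 0.04) and TMM scaling 2.

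The most abundant intron units belong to very long genes, such as GPC6, a glypican with 942 peaks, and the transcription factor SOX5 with 939. GPC6 had 1144, 794 and 746 CPM in mock libraries 1, 2 and 3 and 1245, 1313 and 1236 CPM in arsenite libraries 1, 2 and 3 (0.52 ± 0.17 (SE), adjusted p = 0.0078), and mock library 1 was close to the arsenite libraries. Without mock library 2 or 3 the GPC6 difference was 0.45 and 0.41 (adjusted p = 0.06 and 0.084). SOX5 had 853, 713 and 669.6 CPM in mock and 1078, 1126 and 1046 CPM in arsenite (0.55 ± 0.16 (SE), adjusted p = 0.0041). GPC3 introns had 686, 484 and 519 CPM in mock and 976, 995 and 1019 CPM in arsenite (0.84 ± 0.16 (SE), adjusted p = 2.8e-05), opposite to the GPC3 3'UTR. DPYD (0.72), PLCB1 (0.71), MIR3171HG (0.59), PTPRK (0.56) and ZBTB20 (0.52) were also called higher. The call was lost for PTPRK without mock library 2 (adjusted p = 0.053), and for ZBTB20 without mock library 3 (0.053) or arsenite library 3 (0.051). Relative to all introns, 1 of the 8, GPC3, was still called (0.33, adjusted p = 0.0049). The 5 tested RNAs of the nuclear marker list were divided: 2 were higher, 1 lower and 2 not called. NEAT1 and KCNQ1OT1 rose, NEAT1 with 138, 116 and 121 CPM in mock and 201, 216 and 280.3 CPM in arsenite (0.87 ± 0.16 (SE), adjusted p = 1.9e-05). GAS5 fell, and MALAT1 overlapped (0.24 ± 0.18 (SE), adjusted p = 0.25). SNHG1 overlapped as well, with 30.8, 38.7 and 52.7 CPM in mock and 28.9, 38.1 and 36.9 CPM in arsenite. The part of nuclear RNA in the intron result was not tested.

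In 64 intron units (2.42%) the level was called lower. SGK1 had the deepest loss, with 79.8, 76.4 and 98.1 CPM in mock libraries 1, 2 and 3 and 9.39, 10.8 and 9.74 CPM in arsenite libraries 1, 2 and 3 in its introns. The difference was -2.85 ± 0.22 (SE), adjusted p = 2.0e-16, with 1 peak (chr6:134296755-134296775, minus strand) holding 77.2% of the tags, and it exceeded the loss in the SGK1 3'UTR. FRMD5, a cytoskeletal FERM-domain protein, had 172, 226 and 217 CPM in mock and 62.8, 67.1 and 56.3 CPM in arsenite (-1.69 ± 0.17 (SE), adjusted p = 2.9e-12). CLEC2L had 31.9, 27.5 and 44.3 CPM in mock and 6.5, 9.66 and 6.26 CPM in arsenite (-1.94 ± 0.27 (SE), adjusted p = 3.5e-08) and STEAP1B 37.2, 56 and 54.8 CPM in mock and 12.3, 21.6 and 11.8 CPM in arsenite (-1.60 ± 0.24 (SE), adjusted p = 1.3e-07). ATF3, a stress-induced transcription factor, had 319, 305 and 411 CPM in mock and 172, 182 and 153 CPM in arsenite in peaks annotated as intron (-1.01 ± 0.16 (SE), adjusted p = 7.2e-07). These units rest on 3 to 10 peaks per gene.

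The 2 classes were next compared within genes. For each library the log2 of 3'UTR over intron level was taken, with both means at least 5 CPM. Of 1943 genes 51.1% (993) had a lower 3'UTR to intron ratio under arsenite and 0.618% (12) a higher one, with a median of -0.93. Leaving out single libraries moved the first count between 741 and 1198. CLSTN1 had the largest fall in ratio: its 3'UTR had 81.9, 114 and 111 CPM in mock and 12.3, 14.8 and 10.4 CPM in arsenite and its introns 11.7, 6.11 and 6.33 CPM in mock and 15.2, 13.1 and 16 CPM in arsenite, a change in log2 ratio of -3.62 ± 0.40 (SE), adjusted p = 5.6e-06. In UCHL1 the 3'UTR means were 10.4 CPM in mock and 2.20 CPM in arsenite while the introns rose, a change of -3.14 ± 0.36 (SE), adjusted p = 7.1e-06. PRR11 (-3.55), the lysosomal sulfatase ARSB (-3.22), the receptor GFRA1 (-3.16) and the autophagy factor RB1CC1 (-3.14) also had large falls in ratio. Their introns averaged 3.49, 11.5, 2.74 and 3.89 CPM in mock, where 3 tags are 3.06 to 3.19 CPM. The falls of PRR11, GFRA1 and RB1CC1 therefore rest on few mock intron tags, and their size is uncertain.

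Few genes went the other way. The SGK1 ratio rose by 1.62 ± 0.36 (SE), adjusted p = 0.0013, its introns having lost more than its 3'UTR. ZNG1C, one of several near-identical copies and so uncertain, rose by 1.41, and DTD2 by 1.29. Without arsenite library 3 DTD2 was not called (adjusted p = 0.061), and without mock library 2 ZNG1C was not (0.066). The count of 12 genes with a higher ratio was 5 without arsenite library 1, 7 without arsenite library 2 and 3 without arsenite library 3. Without mock libraries 1, 2 and 3 it was 16, 10 and 16. Of 1109 genes with both a 3'UTR and an intron unit tested, 240 had a lower 3'UTR and higher introns and 311 a lower 3'UTR with introns not called. In 264 the introns were higher and the 3'UTR was not called, 12 were lower in both and 13 higher in both, and no gene had a higher 3'UTR and lower introns. Genes with both changes included ELOVL5, whose 3'UTR differed by -1.49, KDELR2 (-1.12), LARP1 (-0.97) and SFPQ (-1.16), each among the 12 highest in introns. Over all tested units 54.0% of 3'UTR units were lower and 2.60% higher, and 47.7% of intron units higher and 2.42% lower. Whether the calls coincided within genes beyond these shares was not tested.

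Summed over all classes, 4672 gene totals were tested, of which 21.1% (987) were lower and 23.9% (1115) higher. Of the 1204 genes with a lowered 3'UTR, 815 had a lower total, 44 a higher one and 345 were not called. Of the 1262 genes with raised introns, 840 had a higher total and 61 a lower one. The remaining 361 were not called. Each total contains the tags of the unit itself, so its direction is not separate support for the unit call.

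Coding sequence held few testable units. Of 20, 65.0% (13) were lower and 5.00% (1) higher, the latter GPC3 with 4.25, 8.15 and 4.22 CPM in mock and 23.1, 25.6 and 29.2 CPM in arsenite (1.92 ± 0.30 (SE), adjusted p = 4.6e-07), which was chosen after its values were seen. After class scaling 5 were lower and 2 higher. AFP, the fetal serum protein that this tumour line secretes, had 648, 1043 and 821 CPM in mock libraries 1, 2 and 3 and 302, 338 and 272 CPM in arsenite libraries 1, 2 and 3 in its coding sequence (-1.44 ± 0.17 (SE), adjusted p = 2.2e-10). RPL23, a protein of the large ribosomal subunit, had 153, 166 and 211 CPM in mock and 59.2, 90.4 and 88.3 CPM in arsenite in 1 peak (-1.15 ± 0.18 (SE), adjusted p = 3.2e-07), and the transporter ATP13A3 had 30.8, 34.6 and 30.6 CPM in mock and 12.3, 17.1 and 10.4 CPM in arsenite (-1.18 ± 0.25 (SE), adjusted p = 8.5e-05). The rule that named these 3 admits only units whose groups do not overlap. APOB, a lipoprotein component, had 122, 209 and 187 CPM in mock and 142, 116 and 120.3 CPM in arsenite with overlapping groups (-0.42 ± 0.17 (SE), adjusted p = 0.039). The APOB call was lost when mock library 2 or 3 or arsenite library 2 or 3 was left out, with values from -0.26 to -0.39.

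In 5'UTRs the changes had no common direction: of 55 units 25.5% (14) were lower and 20% (11) higher. The largest gain was in POLR2A, the catalytic subunit of RNA polymerase II, with 4.25, 3.06 and 1.05 CPM in mock libraries 1, 2 and 3 and 37.5, 27.9 and 32 CPM in arsenite libraries 1, 2 and 3 at a single peak (chr17:7484543-7484563, plus strand). The difference was 2.90 ± 0.32 (SE), adjusted p = 7.6e-11, and all 3 arsenite libraries lay far above mock. SEPTIN2, a cytoskeletal GTPase, had 12.8, 9.17 and 4.22 CPM in mock and 48.4, 44.3 and 49.4 CPM in arsenite at 1 peak (2.29 ± 0.26 (SE), adjusted p = 1.5e-10). XPO1, a receptor for export from the nucleus, had 10.6, 15.3 and 12.7 CPM in mock and 33.9, 36.4 and 46.6 CPM in arsenite (1.46 ± 0.24 (SE), adjusted p = 1.3e-06), with 8 of 9 peaks lower and 1 peak higher, from a mean of 5.20 to 35.02 CPM. TOB1, an antiproliferative partner of the deadenylase, had 30.8, 67.2 and 52.7 CPM in mock and 107, 81.3 and 109 CPM in arsenite in its 5'UTR (1.00 ± 0.20 (SE), adjusted p = 4.1e-05), while its 3'UTR fell (-1.34 ± 0.25 (SE), adjusted p = 1.3e-05). EBP, a sterol isomerase, was lowered, with 209.5, 298 and 285 CPM in mock and 81.6, 104 and 62.6 CPM in arsenite (-1.66 ± 0.17 (SE), adjusted p = 1.4e-11), as was UTRN, the dystrophin relative utrophin, with 38.3, 27.5 and 30.6 CPM in mock and 9.39, 9.66 and 7.65 CPM in arsenite (-1.64 ± 0.26 (SE), adjusted p = 7.0e-07).

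Of the 25 called 5'UTR units, 7 had a peak inside the promoter windows of RefSeq (GRCh38.p14), which end 50 bases after the transcription start, and the sequences of 6 of them are shown. The seventh, in UTRN, is left out because that peak had almost no tags. They let the lowered sites be set beside the raised one. Each is printed 5' to 3' on the transcript strand over 21 bases, since the table does not state whether its starts count from 0 or 1, and runs of 3 or more T are in capitals.
PSMB4, lowered (chr1:151399570-151399590): tctgctaccgtgactaagatg
RPS25, lowered (chr11:119018313-119018333): gacatcttgacgaggctgcgg
H2BC5, lowered (chr6:26158134-26158154): ggtgTTTgcaacagtgttcta
H2BC6, lowered (chr6:26183767-26183787): TTTcctaactgcagaacagca
H2BC14, lowered (chr6:27815036-27815056): TTTccaccatgcctgaaccag
C6orf62, raised peak (chr6:24719141-24719161): TTTTTTggaaagcaaggatca
C6orf62, lowered peak (chr6:24719328-24719348): caccaagtgtaatcaataaca
The window of the raised C6orf62 peak opened with a run of 6 T, while PSMB4, RPS25 and the lowered C6orf62 peak had no run of 3. The other lowered sites, in H2BC5, H2BC6 and H2BC14, each had a run of 3. In all, the lowered H2BC5 window held 8 T and the raised C6orf62 window 7. With 1 raised site shown, a link between T content and direction was not tested. The motif TTT, searched on the transcript strand, occurred in 45.1% of the 142 5'UTR peaks that lie in such windows. All genes except PSMB4 were chosen after their values were seen.

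PSMB4, a catalytic-core subunit of the proteasome, had 30.8, 41.8 and 34.8 CPM in mock libraries 1, 2 and 3 and 5.78, 9.66 and 6.26 CPM in arsenite libraries 1, 2 and 3 (-2.05 ± 0.27 (SE), adjusted p = 6.6e-09). RPS25, a protein of the small ribosomal subunit, had 14.9, 23.4 and 31.6 CPM in mock and 4.33, 8.53 and 12.5 CPM in arsenite (-1.30 ± 0.31 (SE), adjusted p = 4.2e-04). In C6orf62 the 2 peaks went apart: the raised one had means of 63.7 ± 6.43 CPM in mock and 119 ± 7.90 CPM in arsenite, and the other 19.1 ± 3.30 and 7.47 ± 0.58 CPM (SD, n = 3). The whole C6orf62 5'UTR unit of 8 peaks rose by 0.46 ± 0.17 (SE), adjusted p = 0.019. The H2B histone genes are a family of near-identical copies, so their levels are uncertain. H2BC5 had 12.8, 26.5 and 26.4 CPM in mock and 1.44, 1.71 and 0 CPM in arsenite (-2.96 ± 0.40 (SE), adjusted p = 1.8e-08), the largest loss of any 5'UTR unit, and H2BC6 and H2BC14 differed by -1.97 and -2.36.

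Among 322 units of non-coding RNA, 5.59% (18) were lower and 47.5% (153) higher, and 32 were lower and 41 higher after class scaling. Among those averaging at least 20 CPM LINC01004 rose furthest, with 70.2, 54 and 66.4 CPM in mock and 186, 185 and 180.2 CPM in arsenite over 73 peaks (1.51 ± 0.17 (SE), adjusted p = 7.7e-11), followed by LINC02899 (1.45) and LINC01619 (1.38). Class scaling left them at 1.11, 1.10 and 0.99. LINC00910 was lowest, with 51.1, 84.5 and 92.8 CPM in mock and 5.05, 7.96 and 11.1 CPM in arsenite (-2.96 ± 0.25 (SE), adjusted p = 4.6e-15). GAS5, a host gene of snoRNAs, had 38.3, 46.9 and 54.8 CPM in mock and 13.7, 10.2 and 16.7 CPM in arsenite (-1.65 ± 0.23 (SE), adjusted p = 5.0e-08). A snoRNA-class unit carrying the name DDX39B, an RNA helicase gene with snoRNAs in its introns, had 19.1, 39.7 and 56.9 CPM in mock and 8.66, 5.68 and 11.8 CPM in arsenite (-1.84 ± 0.29 (SE), adjusted p = 4.6e-07), and it was not called after class scaling (-0.27, adjusted p = 0.45). All 3 tested snoRNA units (100% lower, 0.00% higher) fell, the others carrying the names EIF4G2 (-1.78) and RPS12 (-2.49), which were chosen after their values were seen. After class scaling 1 of the 3, RPS12, was still lower (-1.15, adjusted p = 0.008). Of 101 units in transposable elements 0.990% (1) were lower and 40.6% (41) higher, which became 7 and 8 after class scaling, and of 128 units in the mixed class the table calls Other 6.25% (8) and 39.8% (51), which became 10 and 18. NORAD, an abundant cytoplasmic RNA that binds PUMILIO proteins, had 112, 158 and 154 CPM in mock and 116, 108 and 109.9 CPM in arsenite and was not called (-0.32 ± 0.17 (SE), adjusted p = 0.1). Without mock library 1 NORAD differed by -0.48 (adjusted p = 0.0023).

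The last comparison asked whether the cytoplasmic response differed from the nuclear one, with a limma interaction term over the 12 fraction libraries. In the nucleus 10.3% (529) of 5130 units were lower and 17.4% (895) higher. Of 1281 nuclear 3'UTR units 56.8% (727) were higher and 2.81% (36) lower, the reverse of the cytoplasm, and of 3063 intron units 3.07% (94) were higher and 12.2% (373) lower. The effect was more negative in the cytoplasm for 79.4% (1462) of 1841 3'UTR units and more positive for 0.326% (6). For introns 45.4% (1307) of 2882 units were more positive in the cytoplasm and 1.21% (35) more negative. Over all 5449 units the calls were 28.6% (1559) negative and 28.0% (1527) positive, and centring each library on its median unit turned the split to 1714 and 585. The intron count of 1307 was 495 with that centring and 697 with edgeR and TMM scaling, while the 3'UTR count was 1593 and 1540.

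The 1259 3'UTR units tested in both fractions still kept a common order (Spearman's rho 0.46 across units, which share libraries and are not replicates). Over all tested 3'UTR units 54.0% were lower and 2.60% higher in the cytoplasm, and 56.8% higher and 2.81% lower in the nucleus. Whether the calls coincided beyond these shares was not tested. Of the 1259 units 347 were lower in the cytoplasm and higher in the nucleus, 33 were lower in both and 39 higher in both, and none was higher in the cytoplasm and lower in the nucleus. ACTB is an example of the first kind, with 256, 238 and 253 CPM in mock and 516, 495 and 457 CPM in arsenite in the nuclear libraries, a difference of 0.97 ± 0.08 (SE), adjusted p = 7.5e-13 there. CORO1C, an actin-binding protein, had 394, 499 and 533 CPM in mock and 121, 136 and 138 CPM in arsenite in the cytoplasm and differed by 1.55 ± 0.14 (SE), adjusted p = 4.5e-12 in the nucleus, which gave an interaction of -3.38 ± 0.20 (SE), adjusted p = 1.9e-17. PDXK, which makes the active form of vitamin B6, had 58.5, 56 and 69.6 CPM in mock and 38.3, 38.7 and 32 CPM in arsenite in the cytoplasm and rose by 2.76 in the nucleus, an interaction of -3.48 ± 0.30 (SE), adjusted p = 1.0e-12. Relative to its class PDXK was at 0.04 in the cytoplasm. The POTEF, POTEI and POTEJ units, whose sequences are near copies of ACTB and may hold its reads, had interactions of -3.65, -3.25 and -3.19. Each had 3 tags or fewer in every nuclear mock library (0 to 1.82, 0 to 2.90 and 0.97 to 2.73 CPM), so these are fitted values against a group at or under the floor and give no fold.

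Some secretory genes fell in both fractions. IGF2 had 232, 276 and 282 CPM in mock and 77.7, 72 and 52 CPM in arsenite in the nuclear libraries (-1.95 ± 0.13 (SE), adjusted p = 4.3e-16), and its interaction was small (-0.43 ± 0.19 (SE), adjusted p = 0.048). STT3A (-1.80), PDIA4 (-1.37) and ALB (-1.68) also fell in the nucleus. As lists, ER genes had a nuclear median of -0.19 over 17 units, 3 lower and none higher, and plasma protein genes -0.73 over 6, 4 lower and none higher. All 1259 units had a nuclear median of 0.78, with 725 higher and 34 lower. The interaction was negative for 23 of 25 ER units and positive for none, against 79.4% negative over all 3'UTR units. Immediate early genes rose most in the nucleus, 8 of 9 with a median of 1.55. JUN rose there by 3.46 ± 0.25 (SE), adjusted p = 5.8e-15, not distinguishably different from its cytoplasmic gain (interaction -0.74 ± 0.35 (SE), adjusted p = 0.071), whereas JUND (-1.69 ± 0.20 (SE), adjusted p = 2.9e-09) and GNA11 (-2.04 ± 0.23 (SE), adjusted p = 2.0e-09) rose more in the nucleus.

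Of the 1258 raised intron units tested in both, 1128 were not called in the nucleus, 61 were higher and 69 lower, with a nuclear median of -0.05. LARP1 introns differed by 0.13 ± 0.13 (SE), adjusted p = 0.52 in the nucleus and by 1.36 in the cytoplasm, an interaction of 1.24 ± 0.22 (SE), adjusted p = 1.1e-05. HMGCS1 introns also rose in the nucleus (0.94 ± 0.09 (SE), adjusted p = 1.3e-11), with an interaction of 0.53 ± 0.17 (SE), adjusted p = 0.0069. FRMD5 introns fell in the cytoplasm and rose in the nucleus (1.12 ± 0.31 (SE), adjusted p = 0.0046), as ATF3 did (1.00 ± 0.14 (SE), adjusted p = 4.2e-07). Of 52 nuclear 5'UTR units 9.62% (5) were lower and 50% (26) higher. POLR2A (2.64 ± 0.34 (SE), adjusted p = 3.2e-08) and SEPTIN2 (2.47 ± 0.38 (SE), adjusted p = 1.5e-06) rose there as well. The interaction was negative for 38.2% (21) and positive for 1.82% (1) of 55 5'UTR units, and it was not called for POLR2A (0.26 ± 0.44 (SE), adjusted p = 0.62) or SEPTIN2 (-0.18 ± 0.50 (SE), adjusted p = 0.75).

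**Figure D5:**
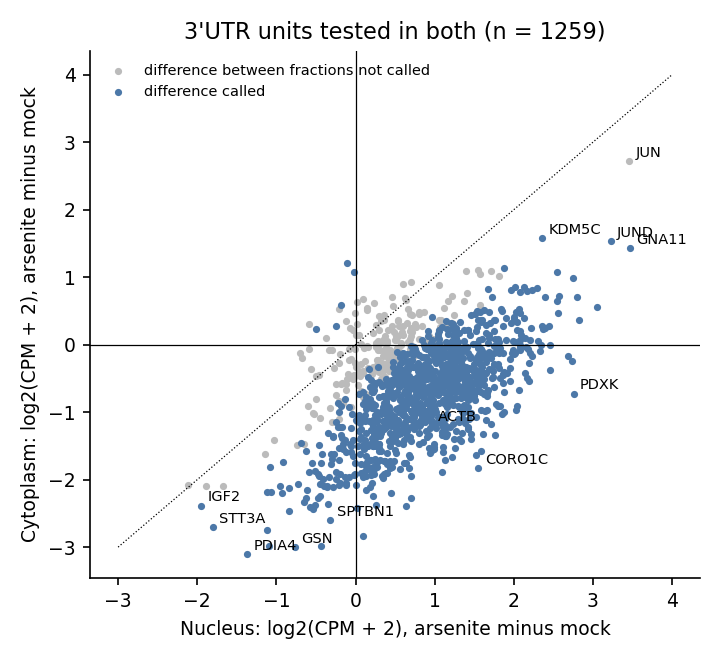
Differences between arsenite and mock for the 1259 3'UTR units tested in both fractions, with the nucleus on the horizontal and the cytoplasm on the vertical axis, both on the log2(CPM + 2) scale. Blue points differ between fractions in the interaction test, and the dotted line marks equal effects. Most units lie below that line, 347 of them lower in the cytoplasm and higher in the nucleus.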

How the data were processed

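HuR CLIP-seq was available as 1 combined table of peaks. Its cells hold coverage signal, which the authors deposited as the tags of a peak divided by the library total. The submitters' processing notes name Bowtie2, SAMtools, bedtools, HOMER and GRCh38.p14. The peak caller and the treatment of duplicates are not given in the sources used here. Dividing each library's values by its smallest non-zero value gave whole numbers (tolerance 0.02) in 100% of cells, and that value was taken as 1 tag. It was refined on the largest values, and its inverse was taken as the library total, which is thus inferred from the values themselves.

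Of 395471 lines, 8257 repeats were dropped. Peaks without a gene name (84358 peaks with 17.8% of cytoplasmic tags) entered class shares only. Tags were summed per gene name and class, 65 gene names having several identifiers. Units averaging at least 10 CPM were tested with limma 3.58.1 on log2(CPM + 2), two-sided, with Benjamini-Hochberg adjustment and a threshold of 0.05. Inferred library totals were 940147 to 981792 tags in mock and 1385165 to 1759090 in arsenite, which limits the precision of low units. Adjusted p-values in the report are from limma, except that of the class shares, from an exact permutation test. Run on the recovered tags, edgeR 4.0.16 (quasi-likelihood test, library totals) called 1387 units lower and 1590 higher. The limma fit was tested on simulated data.

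The members and gene lists were chosen with earlier results of these data known. Named units are called units averaging at least 20 CPM with groups that do not overlap, ranked by difference (12 lowest and 4 highest 3'UTR, 12 highest and 4 lowest intron, 3 each way in coding sequence, 5'UTR and non-coding classes), the 8 most abundant 3'UTR and intron units, the 6 lowest and 3 highest ratios, 5 interactions each way, the 3 most abundant units per list, and POLR2A, WEE1, TFPI and TMEM123. Other list members are given as examples and were chosen after their values were seen. Alternatives were other pseudocounts, level filters, scalings, edgeR, a replicate block, repeated lines kept, single libraries left out and, added after seeing the data, arsenite libraries thinned to the smallest total. Motif searches in 3'UTR and intron peaks were not run, since the only sequence used here was that of the promoter windows. Some units that the naming rule picks are not reported here.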

Additional observations from a re-analysis of the deposited data

Results flagged for a closer look

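The effect of arsenite differed between the cytoplasmic and nuclear fractions in the limma interaction test for many units: it was more negative in the cytoplasm for 1462 3'UTR units and more positive for 1307 intron units. The intron count was 495 when libraries were centred on the median unit and 697 with edgeR and TMM scaling. The lowest values were those of the 3'UTR units of POTEF (-3.65), PDXK (-3.48), CORO1C (-3.38), POTEI (-3.25) and POTEJ (-3.19). The POTE genes are near copies of ACTB, so their levels are uncertain, and each had 3 tags or fewer in every nuclear mock library, so their interactions rest on a group at or under the floor. The highest values were those of TBC1D1 introns (1.92), TRIM27 introns (1.84), the LSM14A unit of the Other class (1.83), the ARIH1 unit in transposable elements (1.83) and PTP4A2 introns (1.82). In TRIM27 the cytoplasmic groups overlapped (-0.05) and the nuclear level fell (-1.89).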

How the results depend on the processing

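Calls below are from limma unless another tool is named. Requiring a mean of 30 CPM, which leaves fewer units to test, gave 1664 called units in place of 2915, 663 lower 3'UTR units, 795 higher intron units, 224 lower ratios and 1776 interactions. Scaling to the tags of the class gave 1470 called units, 395 lower 3'UTR units and 194 higher intron units. It also raised the 58 higher 3'UTR units to 529 and turned the sign of 16 units that the naming rule picks and that were called under at least 1 of the scalings: 3'UTRs of CNOT9 (0.30), HNRNPH1 (0.48), HSPA9 (0.11), IGF2BP1 (0.50), NUCKS1 (0.20), NUFIP2 (0.22), PCBP2 (0.10), PDXK (0.043), RPL15 (0.018), RPL37 (0.56), TNRC6B (0.24), TXNRD1 (0.14) and ZFP36L2 (0.044), APOB coding sequence (0.067), and the unannotated units of MT-RNR1 (0.12) and POLR2A (0.68). The same scaling moved the median of all 3'UTR units from -0.61 to 0.13, and what lay behind the change of the class was not tested. As a share of the inferred library total, 3'UTRs differed by -6.83 and introns by 4.78 percentage points. Centring on the median unit, which shifts all values by -0.12, gave 1515 lower and 1225 higher units (38 higher 3'UTR units in place of 58), and TMM with edgeR 1546 and 1310. For the interaction these gave 1714 and 585, and 1651 and 814. Gene totals under TMM gave 1192 lower and 907 higher. No level filter gave 1920 lower and 1082 higher interactions, and 39 higher ratios in place of 12. Leaving out 1 cytoplasmic library (no fit left out a nuclear one) gave 2286 to 3275 called units, 974 to 1332 lower 3'UTR units, 921 to 1479 higher intron units, 741 to 1198 lower ratios, 1580 to 2302 gene totals, 2673 to 3370 interactions, 3'UTR share differences of -20.5 to -16.3 and intron share differences of 11.97 to 15.3 points. Same-numbered cytoplasmic libraries did not deviate together (correlations -0.067, -0.00085 and -0.064), which cannot show whether they were prepared together. The main fits treat all libraries as unpaired, and the replicate block gave 1289 lower and 1498 higher units. Whether same-numbered cytoplasmic and nuclear libraries are pairs was not checked, and the replicate block gave 1563 lower and 1499 higher interactions. Thinned arsenite libraries gave 1268 lower and 1459 higher. Low units are limited by the smaller mock depth.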

Other observations

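Histone genes, chosen after their values were seen, were mostly lower. The mRNAs of replication-dependent histones end in a stem-loop in place of a poly(A) tail. Of 11 tested units of histone genes 8 were lower, none higher and 3 not called in the limma fit. Among the 6 that are 3'UTR units 3 were lower, near the 54.0% over all 3'UTR units, and all 3 5'UTR units were lower, against 25.5% over all 5'UTR units. H2BC5 had 12.8, 26.5 and 26.4 CPM in the mock libraries and 1.44, 1.71 and 0 CPM in the arsenite libraries in its 5'UTR (-2.96). H2BC14 (-2.36), H2BC6 (-1.97), H4C14 (-2.08), H4C15 (-2.05) and H4C8 (-1.44) were also lower. The 3 units not called, the 3'UTRs of H3-3A, H3-3B and H2AZ2, belong to replacement histones, whose mRNAs are polyadenylated. The intron unit of H2AZ2 was lower (-0.72), and that of H2BC5 was called lower (-0.76, adjusted p = 0.047) although its groups overlapped, against 2.42% lower over all intron units. Histone genes are near copies of each other, so tags may be shared among them.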
